A study of Mus musculus with 7 samples.

Results

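The proteasome genes of the mouse femur are described here after a traumatic brain injury (TBI). They were chosen by name: protein-coding genes whose symbol starts with Psm, a letter from a to g and a number, which gave 50 of the 49671 genes in the count table. Of these, 48 encode subunits of the proteasome, its activators, its inhibitor or its assembly chaperones. The other two are Psmc3ip, a recombination factor that shares only the name, and Psme2b, a single-exon relative of Psme2. The TBI group held 4 libraries from wild-type mice whose cortex had been struck by a controlled cortical impact, with the femur taken 3 days later. The control group held 3 libraries from wild-type mice labelled as uninjured controls. Whether these went through surgery without the impact is not stated in the labels, so effects of the impact and of the operation cannot be told apart. The whole femur was crushed, so each library mixes bone, cartilage, marrow and attached muscle, and markers of all of these were detected.

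The proteasome is the barrel-shaped protease that degrades ubiquitin-tagged proteins. Its 20S core is built of rings of alpha and beta subunits, and the beta subunits encoded by Psmb5, Psmb6 and Psmb7 cut the substrate. The 19S cap recognises and unfolds tagged proteins with its ATPases (Psmc genes) and non-ATPase subunits (Psmd genes). In leukocytes, and in other cells exposed to interferon gamma, Psmb8, Psmb9 and Psmb10 are made and take the places of Psmb5, Psmb6 and Psmb7 in newly built cores. The resulting immunoproteasome is known for producing peptides that fit MHC class I molecules. Proteasome genes as a whole are known targets of the transcription factor NRF1 (Nfe2l1), which acts through the antioxidant response element, and Psmb8 and Psmb9 lie in the MHC region and are known to respond to IRF1.

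Promoter sequence of constitutive and inducible catalytic subunits is shown for the motifs it holds. Sequences are RefSeq's on GRCm38.p6, read 5′ to 3′, and positions count back from the RefSeq start of the gene. Capitals mark the motif letters. The Psmb5 stretch lies at chr14:54618023-54618245, minus strand, and the Psmb6 stretch at chr11:70525107-70525356, plus strand. The Psmb9 stretch of 30 bases lies at chr17:34187368-34187397, minus strand.
Psmb5: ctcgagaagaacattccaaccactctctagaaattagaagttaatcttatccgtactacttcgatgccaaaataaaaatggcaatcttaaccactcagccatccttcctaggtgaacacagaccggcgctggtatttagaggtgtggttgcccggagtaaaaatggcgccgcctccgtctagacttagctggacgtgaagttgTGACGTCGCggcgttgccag
Psmb6: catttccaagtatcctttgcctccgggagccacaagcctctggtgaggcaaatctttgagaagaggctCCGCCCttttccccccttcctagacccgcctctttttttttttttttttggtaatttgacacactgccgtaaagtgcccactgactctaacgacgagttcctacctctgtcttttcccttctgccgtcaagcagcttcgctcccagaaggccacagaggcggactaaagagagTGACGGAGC
Psmb9: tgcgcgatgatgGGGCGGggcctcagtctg

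The antioxidant response element, searched as TGACNNNGC on both strands, stood 47 to 39 bases before the start of Psmb5 and 9 to 1 bases before that of Psmb6. The GC box, searched as GGGCGG on both strands, stood 55 to 50 bases before Psmb9 and, on the opposite strand, 182 to 177 bases before Psmb6. Psmb9 also held CCAAT on the opposite strand 8 to 4 bases before its start. Promoters were found for 42 of the 50 genes, and Psmb7 is not among them. Over the 250 bases before the start, TGACNNNGC was in 5 of the 43 windows of proteasome genes (11.6%) against 10.2% of all 32851 windows. GGGCGG was in 23 (53.5%) against 32.7%. The interferon-stimulated response element was in 3 (6.98%) against 2.98%, in the windows of Psmb3, Psmd4 and Psmd9. CCAAT was in 14 (32.6%) against 33.8%. The matched letters may overlap other motifs, and a match describes the sequence only.

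Library totals ran from 20470241 to 21783534 counts in the TBI group and from 15461528 to 20675655 in controls, and proteasome genes took 0.379% to 0.461% and 0.399% to 0.446% of them. Levels are CPM, a gene's counts relative to library size after TMM scaling, and a count of 0 allows up to 0.128 to 0.189 CPM in a library, where only counting error is covered. Nothing in the labels ties each replicate to a mouse of its own, so the p-values reflect sample-to-sample spread that may be technical. Marker levels set the libraries apart. Summed CPM of 10 skeletal muscle markers came to 2.08%, 3.26%, 8.82% and 11.04% of the total in TBI 1 to 4, against 1.74%, 3.37% and 5.99% in controls 1 to 3. Summed CPM of 5 genes of all leukocytes came to 1267, 948, 411 and 665 in TBI 1 to 4, against 756, 573 and 542 in controls 1 to 3. TBI 1 and TBI 2 were thus the libraries richest in leukocyte mRNA, and TBI 3 and TBI 4 those richest in muscle mRNA. Summed CPM of 8 osteoblast markers ran from 10780 to 14882 in TBI libraries and from 16183 to 28028 in controls, and that of 8 chondrocyte markers from 1580 to 2257 and from 2695 to 3466. The part of these mixtures in the results below was not tested beyond the values given. In crushed bone, fewer cells of a type and less RNA per cell cannot be told apart.

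No proteasome gene passed the threshold (adjusted p under 0.05 in edgeR's quasi-likelihood test over 17144 genes). Across the whole table the test called 0 genes (0%), limma-voom called 0 and DESeq2 called 114, with 0 proteasome genes among them. At an unadjusted p under 0.05, 0 of the 49 tested proteasome genes were higher and 0 lower in edgeR, against 2.37% and 4.97% of all genes tested. At that same p, 4 were higher with a muscle covariate (Psmb8, Psmb9, Psmb10 and Psme1), 2 without TBI 1 (Psmb7 and Psmd6) and 1 without TBI 3 (Psmb9), and 1 was lower without TBI 2 (Psmg3). The share of all genes at that p was not computed for these fits, so their counts have no background. The inducible catalytic subunits Psmb8, Psmb9 and Psmb10 had a median log2 fold change of 0.32, with their highest levels in TBI 1 and TBI 2. The constitutive Psmb5, Psmb6 and Psmb7 had a median of 0.20, and among TBI libraries each was highest in TBI 3 or TBI 4. The order of these medians turned without TBI 1 (0.13 for the inducible and 0.28 for the constitutive subunits) and without control 3 (0.26 and 0.285). Over all 49 tested genes, the median was 0.10 and 43 estimates were above 0 (87.8%), against a median of 0.03 and 54.4% above 0 for all genes tested. Upper-quartile scaling lowered the count to 37 and the median to 0.06, while the distance to the median of all genes was 0.08 under that scaling and under TMM. With a library left out, that distance ran from 0.04 (without TBI 3) to 0.12 (without TBI 1).

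**Figure D1:**
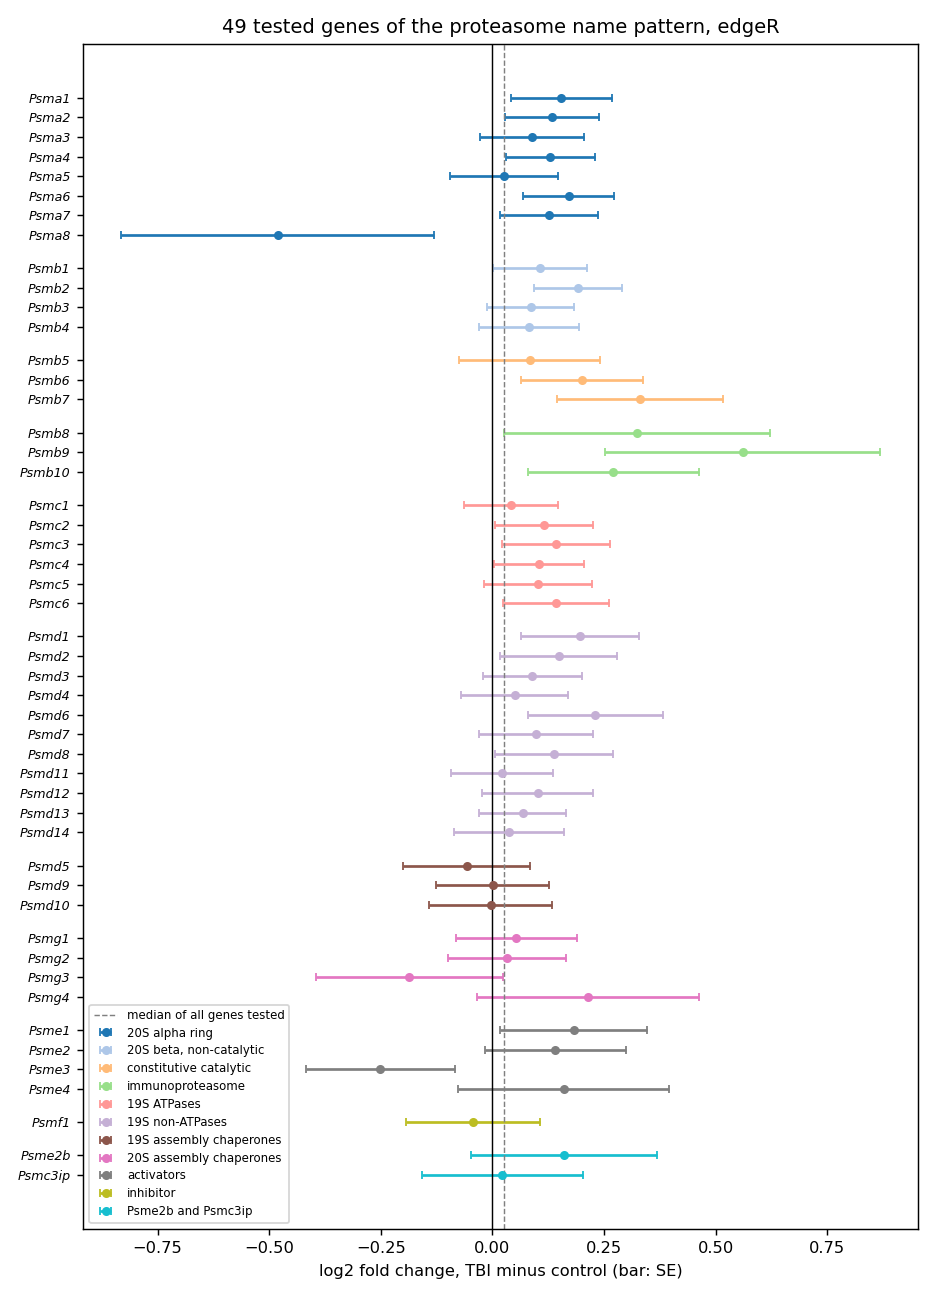
Log2 fold change (TBI minus control, x axis) of the 49 tested genes, grouped by role and drawn with SE bars. The dashed line is the median of all genes tested (0.03). Most estimates lie between 0 and 0.25, Psmb9 is highest at 0.56 and Psma8 lowest at −0.48.

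The inducible catalytic subunits were high in TBI 1 and TBI 2 and near control levels in TBI 3 and TBI 4. Psmb8 (ENSMUSG00000024338, GRCm38 chromosome 17, 34197721 to 34201454, plus strand), the inducible counterpart of Psmb5, measured 60.6, 40.2, 23.9 and 30.7 CPM in TBI 1 to 4, against 35.2, 33.4 and 24.6 CPM in controls 1 to 3. Both groups overlapped, and the lowest library of all was TBI 3. Its log2 fold change was 0.32 ± 0.30 (SE; edgeR adjusted p = 0.781), or 0.03 without TBI 1. An antisense gene, Gm20496, overlaps its exons.

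Psmb9 (ENSMUSG00000096727, chromosome 17, 34181987 to 34187764, minus strand), the inducible counterpart of Psmb6, measured 47.6, 29.9, 17.9 and 21.3 CPM in TBI 1 to 4, against 18.9, 21.1 and 19.4 CPM in controls 1 to 3. TBI 1, TBI 2 and TBI 4 were above all controls and TBI 3 was below them all. The mean was 29.2 ± 13.3 CPM in TBI libraries (SD, n = 4) and 19.8 ± 1.15 CPM in controls (SD, n = 3). The log2 fold change of 0.56 ± 0.31 (SE; edgeR adjusted p = 0.735) had a 95% interval from −0.14 to 1.26, and it was 0.22 without TBI 1. Tap1, a subunit of the peptide transporter that feeds MHC class I, lies on the opposite strand. In RefSeq the starts of Psmb9 and Tap1 are 225 bases apart. In GENCODE, which gave the Psmb9 position above, Tap1 starts inside Psmb9 and exons of Psmb9 and Tap1 overlap. Tap1 measured 133, 77.1, 49.8 and 56.3 CPM in TBI 1 to 4, against 56.5, 59.5 and 58.9 CPM in controls 1 to 3, and was picked with its values in view. The labels do not state whether counting used strand, so reads of Psmb9 and Tap1 may be mixed.

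Psmb10 (ENSMUSG00000031897, chromosome 8, 105935735 to 105938444, minus strand), the inducible counterpart of Psmb7, lies outside the MHC region. It measured 34.1, 29.9, 21.9 and 20.5 CPM in TBI 1 to 4, against 20.7, 23.9 and 21.6 CPM in controls 1 to 3. TBI 1 and TBI 2 were again above all controls, with TBI 4 below them all. The log2 fold change was 0.27 ± 0.19 (SE; edgeR adjusted p = 0.763) and 0.13 without TBI 1. With the mean of the muscle markers as a covariate, the estimates were 0.52 for Psmb8, 0.69 for Psmb9 and 0.37 for Psmb10, with edgeR adjusted p-values of 0.118, 0.114 and 0.209.

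**Figure D2:**
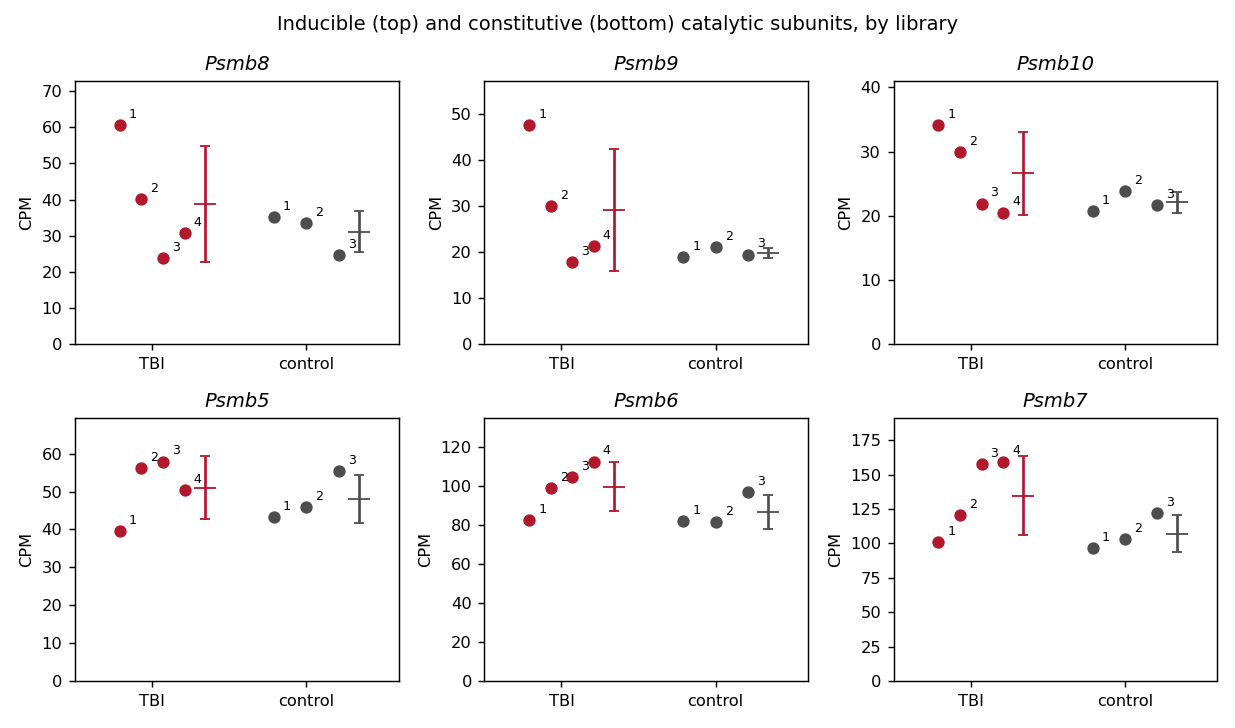
CPM of the inducible (top) and constitutive (bottom) catalytic subunits in each library, numbered by replicate, with group mean and SD (n = 4 TBI, n = 3 control). Psmb8, Psmb9 and Psmb10 are highest in TBI 1 and TBI 2, whereas Psmb7 is highest in TBI 3 and TBI 4 (158 and 159 CPM).

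Psmb6 and Psmb7 ordered the TBI libraries the other way, with both TBI 3 and TBI 4 above TBI 1 and TBI 2. Psmb7 (ENSMUSG00000026750, chromosome 2, 38588036 to 38644087, minus strand), the trypsin-like subunit, measured 101, 121, 158 and 159 CPM in TBI 1 to 4, against 96.3, 103 and 122 CPM in controls 1 to 3. TBI 3 and TBI 4 stood above all controls. The log2 fold change was 0.33 ± 0.19 (SE; edgeR adjusted p = 0.742), close in size to that of Psmb8, and 0.15 with the muscle covariate. Exons of Psmb7 overlap those of Nek6 on the opposite strand.

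Psmb6 (ENSMUSG00000018286, chromosome 11, 70525367 to 70527858, plus strand), the caspase-like subunit, measured 82.6, 99.1, 105 and 113 CPM in TBI 1 to 4, against 82.2, 81.4 and 96.7 CPM in controls 1 to 3. Psmb5 (ENSMUSG00000022193, chromosome 14, 54614119 to 54618022, minus strand), the chymotrypsin-like subunit, measured 39.5, 56.2, 57.9 and 50.4 CPM in TBI 1 to 4, against 43.2, 45.8 and 55.3 CPM in controls 1 to 3. Both genes overlapped between groups. The log2 fold changes were 0.20 ± 0.14 for Psmb6 and 0.08 ± 0.16 for Psmb5 (SE; edgeR adjusted p = 0.763 and 0.895). With the muscle covariate they were 0.10 and −0.01.

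Set against its constitutive partner within each library, no inducible subunit differed between the groups beyond the spread. The Psmb8 to Psmb5 count ratio was 1.54, 0.716, 0.412 and 0.610 in TBI 1 to 4, against 0.814, 0.729 and 0.445 in controls 1 to 3. On the log2 scale it was 0.18 higher in the TBI group, with an exact permutation p of 0.857 (n = 4 and 3). The Psmb9 to Psmb6 ratio was 0.577, 0.302, 0.171 and 0.190 in TBI 1 to 4, against 0.230, 0.259 and 0.201 in controls 1 to 3, a log2 difference of 0.26 (exact permutation p = 0.743). The Psmb10 to Psmb7 ratio was 0.338, 0.248, 0.139 and 0.129 in TBI 1 to 4, against 0.215, 0.232 and 0.177 in controls 1 to 3, a log2 difference of −0.07 (exact permutation p = 0.914). TBI 1 had the highest value of all 7 libraries in each ratio, and TBI 3 or TBI 4 the lowest. Adjusted over the 3 ratios, each two-sided exact permutation p was 0.914. Over 35 splits this p falls under 0.05 only if the observed split is the most extreme of all. Large p-values here therefore do not show equal ratios. Without TBI 1 the differences were −0.18, −0.10 and −0.33. Without control 3 the Psmb8 to Psmb5 difference was −0.09, and the Psmb10 to Psmb7 difference turned to 0.09 without TBI 3, 0.13 without TBI 4 and 0.01 without control 2.

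As a share of the summed CPM of the 6 catalytic genes, the inducible subunits held 39.0%, 26.6%, 16.6% and 18.4% in TBI 1 to 4, against 25.2%, 25.4% and 19.3% in controls 1 to 3. The TBI libraries thus spanned a wider range than the controls, which lay inside it. The mean share was 25.1% ± 10.2 in TBI libraries (SD, n = 4) and 23.3% ± 3.45 in controls (SD, n = 3). Per 100 CPM of the 5 leukocyte genes, the inducible subunits summed to 11.2, 10.6, 15.5 and 10.9 CPM in TBI 1 to 4, against 9.89, 13.7 and 12.1 CPM in controls 1 to 3. On that scale TBI 1 and TBI 2 lay within the control range, and TBI 3 was highest. All 5 leukocyte genes were detected, and summed levels of monocyte and macrophage markers (283 to 657 CPM in TBI libraries, 300.3 to 398 in controls) and of T and NK cell markers (13.9 to 50.05 and 20.5 to 25.4) also peaked in TBI 1. Late neutrophil markers summed to 2366 to 12384 CPM in TBI libraries and 3428 to 5108 in controls, also with the highest level in TBI 1 and the lowest in TBI 3. Dendritic cell markers did the same, at 39.2 to 113 CPM in TBI libraries and 49.6 to 72.1 in controls. The B cell and erythroid lists did not peak in TBI 1. B cell markers summed to 56.1 to 175 CPM in TBI libraries and 142 to 237 in controls, with all 6 estimates below 0 and the highest level in control 1. Erythroid markers summed to 22912 to 32183 CPM in TBI libraries and 44365 to 50960 in controls, without overlap. Their part in the levels of the inducible subunits was not tested.

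**Figure D3:**
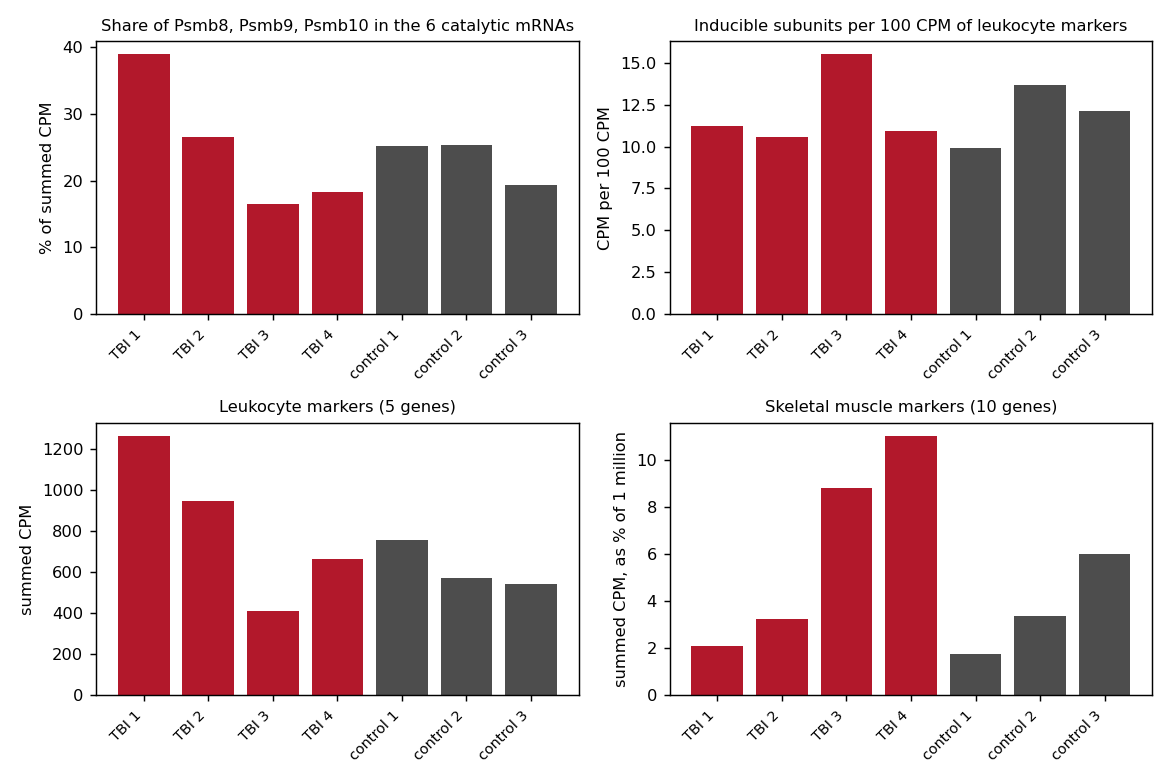
Bars give each library's share of inducible subunits in the 6 catalytic mRNAs, their summed CPM per 100 CPM of leukocyte markers, and the leukocyte and muscle marker levels. The share is highest in TBI 1 (39.0%) and lowest in TBI 3 (16.6%), and orders the 4 TBI libraries as the leukocyte markers do. The level per leukocyte marker does not follow that order.

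Compared per length, each constitutive catalytic subunit had a higher mean mRNA level than each inducible one in both groups, while assembled cores were not measured. Levels were divided by the length of the principal transcript (CPM per kilobase). Psmb8, Psmb9 and Psmb10 averaged 23.9 ± 9.83, 21.6 ± 9.82 and 20.3 ± 4.96 CPM per kilobase in TBI libraries (SD, n = 4), and 19.1 ± 3.47, 14.7 ± 0.853 and 16.8 ± 1.25 in controls (SD, n = 3). Psmb5, Psmb6 and Psmb7 averaged 56.7 ± 9.24, 125 ± 15.9 and 116 ± 24.8 CPM per kilobase in TBI libraries, and 53.5 ± 7.09, 109 ± 10.8 and 92.3 ± 11.5 in controls. Over the 14 constitutive 20S genes without Psma8, the median level was 86.3 CPM per kilobase in TBI libraries and 77.8 in controls. The 17 subunits of the 19S cap had median levels of 62.3 and 55.3 CPM per kilobase in TBI libraries and controls. Levels between genes depend on which transcript is taken: over all annotated exons, Psmb9 came to 7.98 and 5.42 CPM per kilobase and Psmb6 to 53.3 and 46.3.

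The alpha ring, which gates the core, had estimates a little above 0 in 7 of its 8 genes. Psma6 measured 82.6, 86.3, 93.2 and 92.6 CPM in TBI 1 to 4, against 77.6, 81.9 and 76.9 CPM in controls 1 to 3. Every TBI library was above every control under TMM scaling, but not under RLE or upper-quartile scaling. The log2 fold change was 0.17 ± 0.10 (SE; edgeR adjusted p = 0.754), with a median of 0.13 over the alpha genes. The exception was Psma8, a testis-specific alpha subunit, at 0.813 to 1.35 CPM in TBI libraries and 0.938 to 1.89 CPM in controls (log2 fold change −0.48 ± 0.35, SE; edgeR adjusted p = 0.763). Its estimate was −0.73 without control 3 and −0.29 without control 2. Among the non-catalytic beta genes all 4 estimates were above 0. Psmb2 measured 61.0, 69.8, 63.5 and 64.9 CPM in TBI 1 to 4, against 54.8, 57.8 and 57.6 CPM in controls 1 to 3, again without overlap. It had the smallest p of all members (log2 fold change 0.19 ± 0.10, SE; unadjusted p = 0.0852, edgeR adjusted p = 0.726).

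In 5 of the 49 genes (10.2%) every TBI library lay above every control, against 2.66% of all genes tested. These were Psma2, Psma4, Psma6, Psmb2 and Psmc4. In 0 of the 49 did every TBI library lie below every control, against 5.38% of all genes. Without TBI 1 this count was 2, and without TBI 2 or control 3 it was 1. The share of all genes below the controls was not computed for those fits. The count of genes above all controls moved with scaling, to 4 (8.16%, against 2.81% of all genes) under RLE. There Psma6 and Psmc4 dropped out and Psmd13 came in. Under upper-quartile scaling the count was 2 (4.08%, against 1.81%), with Psma4 and Psmb2 left. With a library left out, the share of all genes moved too. The count was 10 without TBI 1 (20.4%, against 5.6% of all genes), 10 without TBI 4 (20.4%, against 4.11%) and 9 without control 1 (18.4%, against 8.09%). It was 6 without TBI 3 (12.2%, against 6.5%) and 7 without control 3 (14.3%, against 5.7%). Without TBI 2 and without control 2 it was 3 (6.12%), near the 4.13% and 4.19% of all genes. The genes of a complex are not independent of each other, so this count carries no test.

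Subunits of the 19S cap had estimates above 0 in all 17 genes. On the log2 scale their median was 0.10 and they ranged from 0.02 to 0.23. The count above 0 was 15 under upper-quartile scaling and 15 without TBI 3. Psmc6, an ATPase of the cap's ring, measured 103, 93.9, 117 and 117 CPM in TBI 1 to 4, against 96.6, 95.1 and 101 CPM in controls 1 to 3. The groups overlapped (log2 fold change 0.14 ± 0.12, SE; edgeR adjusted p = 0.773). Psmd6, a subunit of the cap's lid, measured 72.7, 84.5, 104 and 99.1 CPM in TBI 1 to 4, against 73.2, 70.7 and 86.2 CPM in controls 1 to 3. It had the highest estimate of the cap (0.23 ± 0.15, SE; edgeR adjusted p = 0.763), and TBI 3 and TBI 4 stood above all controls.

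Of the 17 cap genes, 11 shared the library order of Psmb6 and Psmb7. In those 11 both TBI 3 and TBI 4 were above both TBI 1 and TBI 2, and in 0 of 17 was the order reversed. Over all 17144 genes tested the shares with these orders were 27.3% and 29.8%. Over all 49 tested members, 17 had the order of Psmb6 and Psmb7. The alpha ring had 3 genes in each order, and the non-catalytic beta genes had 0 in either. TBI 3 was the highest TBI library for 15 of the 17, a count that was not made over all genes. The reverse order held in 11 of the 49 tested members, against the 29.8% of all genes. These were Psmb8, Psmb9, Psmb10, Psme1 and Psme2, together with Psma2, Psma5, Psma7, Psmd10 and the pattern-only genes Psme2b and Psmc3ip.

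**Figure D4:**
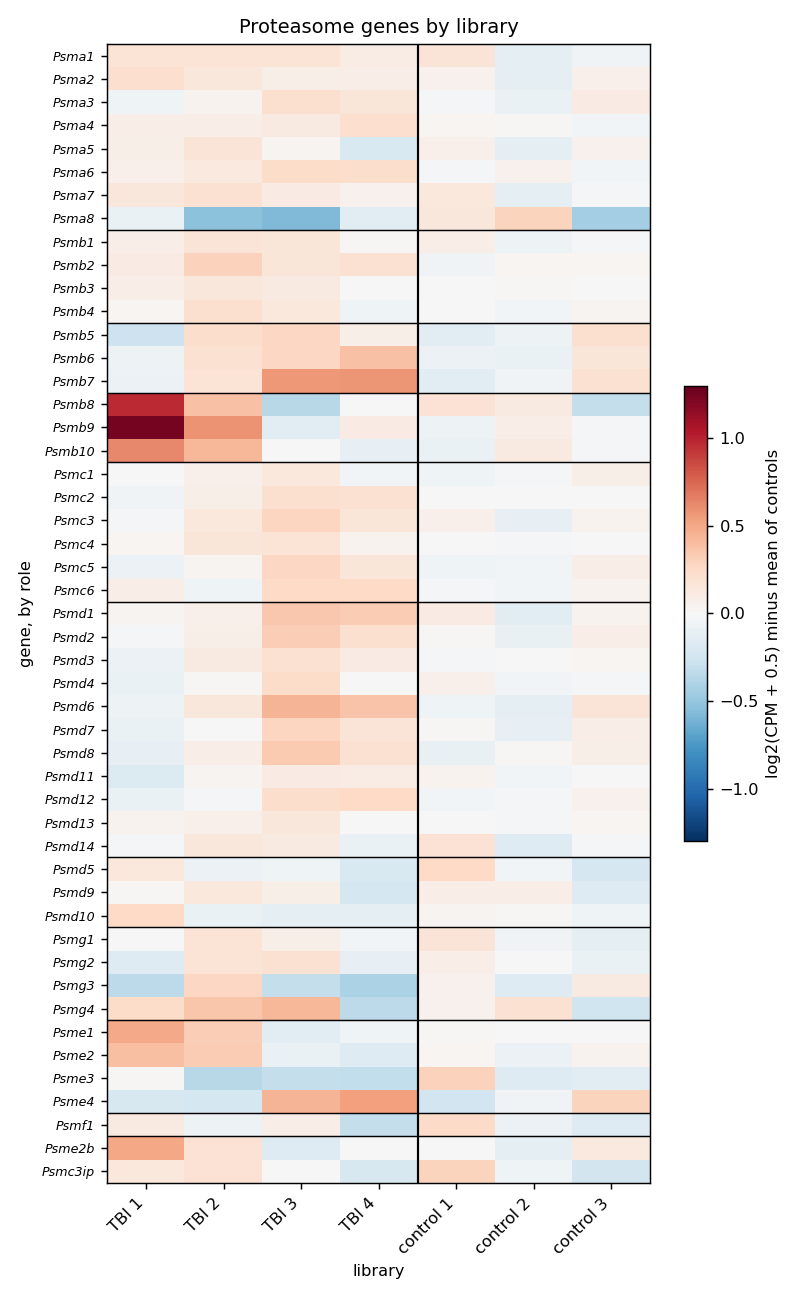
Each row is a tested gene, grouped by role, and each column a library, coloured by log2(CPM + 0.5) minus the mean of the controls. The inducible subunits with Psme1 and Psme2 are high in TBI 1 and TBI 2, and Psmb7, Psme4 and many 19S genes are highest in TBI 3 and TBI 4.

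Among activators of the core, Psme1 and Psme2 shared the order of the inducible subunits and Psme4 that of Psmb6 and Psmb7. Psme1 and Psme2 encode PA28 alpha and beta, an interferon-inducible cap that works with the immunoproteasome. Psme1 measured 92.0, 81.9, 59.5 and 62.9 CPM in TBI 1 to 4, against 66.1, 64.9 and 65.0 CPM in controls 1 to 3. TBI 1 and TBI 2 were above all controls and the other two below them all (log2 fold change 0.18 ± 0.16, SE; edgeR adjusted p = 0.777, and 0.06 without TBI 1). Psme2 measured 66.3, 63.2, 47.5 and 44.9 CPM in TBI 1 to 4, against 51.3, 47.9 and 51.9 CPM in controls 1 to 3. Its estimate was 0.14 ± 0.16 (SE; edgeR adjusted p = 0.816), and Psme2b, which may share reads with it, had an estimate of 0.16 ± 0.21 at 5.37 to 8.86 CPM in TBI libraries and 5.55 to 6.67 CPM in controls.

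Psme4, which encodes the PA200 activator, measured 140.4, 138, 220.0 and 235 CPM in TBI 1 to 4, against 136, 157 and 199 CPM in controls 1 to 3. It was high in the libraries richest in muscle mRNA in both groups (log2 fold change 0.16 ± 0.24, SE; edgeR adjusted p = 0.857). Psme3, the nuclear activator PA28 gamma, had the lowest estimate after Psma8, at −0.25 ± 0.17 (SE; edgeR adjusted p = 0.763). It measured 303, 234, 243 and 241 CPM in TBI 1 to 4, against 370.0, 267 and 274 CPM in controls 1 to 3. TBI 2, TBI 3 and TBI 4 were below all controls, and the estimate was −0.08 without control 1. The inhibitor Psmf1 (PI31) measured 66.5 to 89.5 CPM in TBI libraries and 73.1 to 97.6 CPM in controls (log2 fold change −0.04 ± 0.15, SE).

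Of all role groups, the chaperones of the cap had the median nearest 0 (−0.004). Psmd5, Psmd9 and Psmd10, chaperones that build the cap's base, had log2 fold changes of −0.06 ± 0.14, 0.0008 ± 0.13 and −0.004 ± 0.14 (SE). Psmd5 turned to 0.08 without control 1 and Psmd9 to −0.08 without control 3. Of the 4 chaperones of the core, Psmg4 had an estimate of 0.21 ± 0.25 at 3.58 to 6.45 CPM in TBI libraries and 3.81 to 5.42 in controls, and from 0.08 without control 3 to 0.37 without TBI 4. Psmg3 was at −0.19 ± 0.21 with 6.96 to 11.4 CPM in TBI libraries and 8.32 to 10.2 in controls, and from −0.39 without TBI 2 to −0.11 without TBI 4. Psmg1 was at 0.05 ± 0.14 and Psmg2 at 0.03 ± 0.13. Psmb11, the catalytic subunit of the thymus form, did not pass the filter on low counts, with 3 counts in the TBI group (TBI 1 and TBI 4) and 0 in controls.

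Most of these genes varied less between libraries than the table at large. The median within-group SD was 0.14 on the log2 scale for the 49 genes and 0.25 for all genes tested, which were not matched for level. Psmb9 and Psmb8 varied most, with SDs of 0.48 and 0.47, followed by Psme4 at 0.36. Among TBI libraries the highest level of Psmb9 was 2.66 times the lowest, against 1.12 times among controls. The 95% interval reached above a log2 fold change of 1 for 2 of the 49 genes (Psmb8 and Psmb9), so a doubling lay outside the interval of the other 47. The lowest lower bound was that of Psma8, at −1.28, so a fall to below 0.5 of the control level lay inside its interval. Intervals that include 0 do not show that the groups had equal levels.

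Genes that work with the proteasome but carry other names had estimates of similar size, with a median log2 fold change of 0.10. Of 27 listed partners 26 were tested, and 20 had an estimate above 0. At an unadjusted p under 0.05, 0 were higher and 1 was lower, which is no more than the 4.97% of all genes that were lower. That gene was Zfand2a, a stress-induced zinc-finger protein of the cap, at 17.3, 18.01, 15.6 and 15.8 CPM in TBI 1 to 4, against 19, 21.9 and 20.7 CPM in controls 1 to 3. All TBI libraries were below all controls (log2 fold change −0.30 ± 0.12, SE; edgeR adjusted p = 0.662). The ubiquitin gene Ubb did not overlap either, at 581 to 681 CPM in TBI libraries and 700.0 to 752 CPM in controls. Of the 26 tested partners, 2 thus lay below all controls and 0 above, against 5.38% and 2.66% of all genes. The deubiquitinase Uchl5 was at 0.20 ± 0.11 and the ubiquitin ligase Ube3a at 0.27 ± 0.17 (SE; edgeR adjusted p = 0.726 and 0.761). Nfe2l1, picked with its values in view, measured 196, 226, 444 and 437 CPM in TBI 1 to 4, against 189.8, 292 and 347 CPM in controls 1 to 3. Like Psmb7 and Psme4, it was high in the libraries richest in muscle mRNA.

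Tap1, Tap2 and Irf1, picked from longer lists, work with or upstream of the immunoproteasome and shared its order of TBI libraries. Both TBI 1 and TBI 2 were above both TBI 3 and TBI 4, as in 29.8% of all genes tested. Of 12 tested genes of class I antigen processing, 10 had an estimate above 0. Their median was 0.20 on the log2 scale, and 0 had an unadjusted p under 0.05. Tap2, the other part of the peptide transporter, measured 80.8, 69.7, 51.8 and 49.1 CPM in TBI 1 to 4, against 57.1, 49.6 and 48.1 CPM in controls 1 to 3 (0.29 ± 0.19, SE; edgeR adjusted p = 0.763). Tapbpl, a peptide editor, was at 0.41 ± 0.23 and Erap1, which trims peptides, at 0.23 ± 0.13 (SE; edgeR adjusted p = 0.735 and 0.738). Without TBI 1, Tap2 was at 0.14 and Tapbpl at 0.21. Irf1, an interferon-induced transcription factor, measured 60.9, 40.5, 29.0 and 34.1 CPM in TBI 1 to 4, against 35.2, 32.5 and 36.6 CPM in controls 1 to 3. TBI 1 and TBI 2 were above all controls. The estimate was 0.24 ± 0.23, and −0.01 without TBI 1, and that of the receptor chain Ifngr2 was 0.15 ± 0.14 (SE). Tapbpl shared the order of Tap2, whereas Ifngr2 had the reverse order and Erap1 had neither. Ifng itself did not pass the filter.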

How the data were processed

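Per the labels' protocols, a strand-marking mRNA kit was used on total RNA of crushed femurs. The authors deposited raw counts for 49671 Ensembl genes. STAR, DESeq and GRCm38 are named in the submitters' processing notes. No source used here names the counting tool or its strand setting. A second deposited table, of transformed values, was not used.

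Symbols, positions and lengths came from GENCODE M21 (GRCm38), which matched 49412 identifiers (99.5%). Counts were filtered with filterByExpr (17144 genes left), scaled by TMM and tested with edgeR 4.0.16 (R 4.3.3) at its quasi-likelihood defaults, TBI minus control, with Benjamini-Hochberg adjustment over all genes. The SE came from the estimate and its F statistic. The procedure was also run on simulated counts with the same dispersion for every gene and no difference in tissue mix. That run does not show how it performs on these libraries. Alternatives were DESeq2 1.42.0, limma-voom 3.58.1, other scalings and filters, the replicate number as a block, a muscle covariate and each library left out. Ratios added 0.5 to each count and used exact permutation of the 35 splits. Chi-square per degree of freedom between libraries of one group was 27.2 or more, above sampling noise. Motif searches used RefSeq promoters.

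The members and lists were chosen with earlier results of these data known. Named were the 6 catalytic genes, the smallest p per role and direction, the 3 smallest p per pathway list and members removed by the filter. Other members were added to complete their role group, for position in the library order or after their values were seen. A gene that this rule names, and a motif, are not reported here.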

Additional observations from a re-analysis of the deposited data

Results flagged for a closer look

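Among the 64 sets of 4 TBI values examined, 5 had a library far from the others by Dixon's criterion, where chance alone gives about 1 in 20. Psma1 was lower in TBI 4 (109.7 CPM) than in the other TBI libraries (116 to 117 CPM). Psmd10 was higher in TBI 1 (21.2 CPM) than in the others (16.2 to 16.5 CPM). Psme3 was higher in TBI 1 (303 CPM) than in the others (234 to 243 CPM), which lay below all controls. Psmg3 was higher in TBI 2 (11.4 CPM) than in the others (6.96 to 7.48 CPM). The inducible catalytic subunits per 100 CPM of leukocyte markers were higher in TBI 3 (15.5 CPM) than in the others (10.6 to 11.2 CPM).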

How the results depend on the processing

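No alternative called a proteasome gene. DESeq2 called 114 genes over the whole table, and the other fits 0. The median over the 49 genes moved to 0.0631 under upper-quartile scaling and ran from 0.0658 (without TBI 3) to 0.119 (without control 3) with a library left out. That of the inducible subunits ran from 0.13 to 0.50 and that of the constitutive ones from 0.14 to 0.29. The ratio differences ran from −0.185 to 0.448 (Psmb8 to Psmb5), −0.0978 to 0.486 (Psmb9 to Psmb6) and −0.334 to 0.131 (Psmb10 to Psmb7).

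Deviations of same-numbered libraries correlated at 0.549, −0.0277 and 0.322, and those of differently numbered ones at −0.45 to 0.393. So few pairs cannot decide whether replicate numbers pair the samples. No control shares the number of TBI 4, so TBI 4 cannot inform the group difference once replicate number is a block. With the replicate block the count of called genes was 0. At an unadjusted p under 0.05 in that fit, 2 proteasome genes (Psmb9 and Psmb10) were higher, and the share of all genes was not computed. With the block, the median over the 49 genes was 0.10, that of the inducible subunits 0.36 and that of the constitutive ones 0.13. The Psmb10 to Psmb7 difference turned to 0.131, the value it had without TBI 4, so the block added no separate change there. Psmd5 turned to 0.000261 and Psmf1 to 0.0456 with the block, against −0.00899 and 0.0376 without TBI 4. With the muscle covariate Psmb5 turned to −0.00795, Psmd5 to 0.0449 and Psmf1 to 0.0481. Psmd9 turned to −0.0393 under upper-quartile scaling, −0.00494 without a filter and −0.00067 in limma-voom, and ran from −0.0802 to 0.0733 with a library left out. Leaving out a library gave −0.165 to 0.081 for Psmd5, −0.127 to 0.0899 for Psmf1 and −0.00939 to 0.378 for Irf1. The causes were not tested.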
